A study of Mus musculus with 7 samples.

Results

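The steroid hormone metabolizing enzymes described here are Cyp17a1, Hsd3b2, Hsd3b3, Hsd3b5, Hsd11b1, Hsd17b2, Hsd17b6 and Srd5a1, 8 genes of a list made with the ethanol and control values of these livers already known. Probes were taken by gene symbol from the array's annotation, which named 15 probes for 7 of the 8 genes, out of 45281 probes for 19057 named genes. Srd5a1, the steroid 5-alpha reductase of liver, was not analysed here because no probe carried its name. The livers came from 7 male C57BL/6J mice at postnatal day 28. The 4 control mice and the 3 ethanol mice shared strain, sex and age, and the ethanol mice came from dams that drank 10% ethanol (v/v) at will from fertilization until gestational day 8.5. The treatment text of the labels was the same for every sample, so the group was read from the sample title. The dose that reached an embryo, the litters and any pooling are not given in the sources used here, and p-values therefore reflect only how far these 7 samples differed, which may be technical in part.

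The liver does not make steroid hormones from cholesterol as the adrenal cortex and gonads do. Its enzymes activate, inactivate and clear steroids that arrive in the blood. Hydroxysteroid dehydrogenases move a steroid between its alcohol and its ketone form, which switches receptor binding on or off, reductases saturate the steroid ring, and cytochrome P450 enzymes hydroxylate it. Many of these genes differ between male and female rodent liver, a difference set mainly by the rhythm of growth hormone secretion and established around puberty.

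Intensities are the authors' deposited values on a linear scale, and log2 values were computed from them after background correction and quantile normalization. Above background means an intensity over 3 times the noise of that array, a limit of 21.3 to 26.9 intensity units. Of the 15 probes, 10 were above background on all 7 arrays, and they covered 6 genes. The 12 probes that passed the filter on low values were tested with all others, 23829 probes in all. Levels of different probes are not set against each other, because probes differ in efficiency.

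Most markers of hepatocytes were well measured. Of 8 hepatocyte markers, 6 were above background on all arrays, with a summed intensity of 156564 to 187803 in controls and 185776 to 200686 in ethanol livers. The sum came mostly from Apoa1, Ttr and Ahsg, whose log2 fold changes after normalization were only 0.07, 0.02 and 0.06. Log2 fold changes at the brightest tested probes were above 0 for 7 of the 8, the largest 0.08 for Cps1. The probe of Tat, a liver aminotransferase counted among those 7, read at background on every array. A probe at background therefore does not show that a gene is silent. All 7 markers of adrenal and gonad steroid cells were not above background on any array. Of 7 kidney tubule markers 5 were not, and Slc12a3 was above background on all arrays. The kidney sum was 324 to 433 in controls and 449 to 491 in ethanol livers, mostly from the brightest tested probe of Slc12a3. The log2 fold change of that probe was 0.27, and the other tested probe of Slc12a3 gave -0.12. Stellate cell markers summed to 7827 to 9273 and 6537 to 8164, mostly from Dcn. At the brightest tested probe of each gene, 6 of 6 log2 fold changes were below 0. Other tested probes gave 0.10 for Col3a1 and -0.29 to 0.02 for Dcn, and Col1a1 was above background on 2 arrays. Kupffer cell markers summed to 5065 to 5694 and 4627 to 7603, with 6 of 6 tested above 0. Red cell precursor markers summed to 37055 to 49646 and 47215 to 54989, nearly all from Hba-a1. Of these markers 2 of 2 were above 0, among them Alas2, an enzyme of heme synthesis, at a log2 fold change of 0.65 (adjusted p in limma 0.465). Sinusoidal endothelium markers summed to 1333 to 1485 and 1096 to 1450, with 2 of 5 above 0 and Lyve1, a hyaluronan receptor, at a log2 fold change of -0.39 (adjusted p in limma 0.449). Cholangiocyte markers summed to 187 to 667 and 245 to 512. Their part in the values given here was not tested, and in whole liver fewer cells of a type and less RNA per cell cannot be told apart.

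Hsd3b5 was the most variable of these enzymes and had the largest log2 fold change between the groups, though not the widest gap between their nearest livers. In the mouse it encodes a member of the 3-beta-hydroxysteroid dehydrogenase family that works as a ketosteroid reductase in male liver. Its intensity was 91.2, 337, 736 and 485 in controls 1 to 4, and 936, 2814 and 7386 in ethanol mice 1 to 3. Every ethanol liver lay above every control liver, with ethanol 1 close to control 3 and ethanol 3 far above the rest. The means were 412 ± 270 (SD, n = 4) and 3712 ± 3317 (SD, n = 3), a ratio of 9.01 on the linear scale. The log2 fold change, ethanol minus control, was 2.74 ± 0.63 (SE). Without ethanol 3 it was 2.01, without control 1 it was 2.30 and without ethanol 1 it was 3.47. Within each group the highest liver exceeded the lowest by a similar factor, 8.06 in controls and 7.89 in ethanol mice.

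Cyp17a1 had the opposite pattern. It encodes the P450 enzyme that hydroxylates pregnenolone and progesterone and cleaves their side chain, a step toward androgens in the gonads. Its intensity was 1579, 1173, 1021 and 1118 in controls 1 to 4, and 669, 594 and 334 in ethanol mice 1 to 3. All 3 ethanol livers lay below all 4 control livers, with control 1 highest and ethanol 3 lowest. The means were 1223 ± 246 (SD, n = 4) and 532 ± 176 (SD, n = 3), so the control mean was 2.30 times the ethanol mean. The log2 fold change was -1.14 ± 0.20 (SE), and runs without 1 animal gave values from -1.31 (without ethanol 1) to -0.88 (without ethanol 3).

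**Figure D1:**
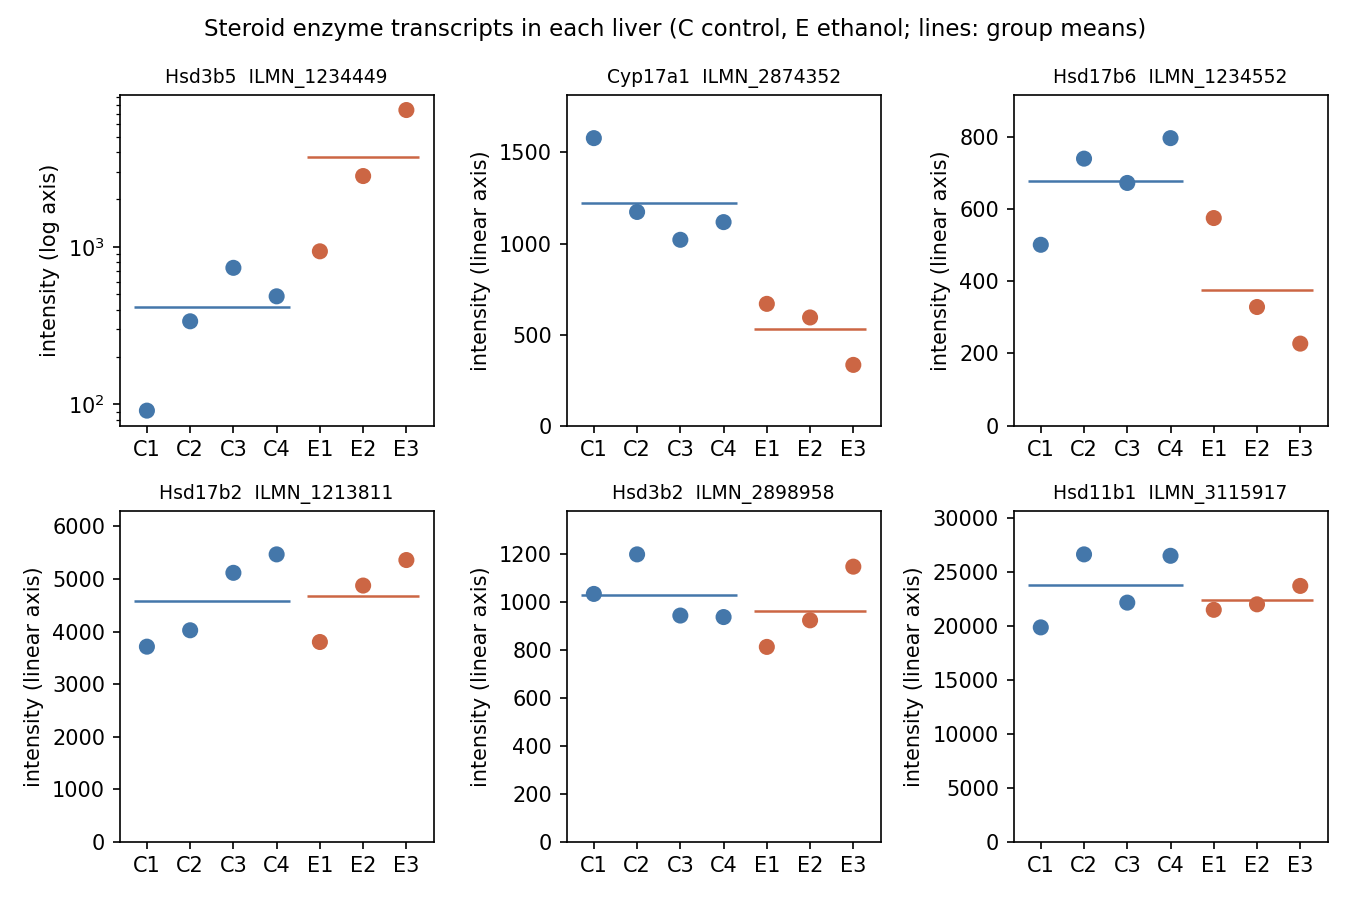
Deposited intensity of the brightest tested probe of each enzyme in each liver, with C1 to C4 for the 4 controls, E1 to E3 for the 3 ethanol mice and a line at each group mean. The axis of Hsd3b5 is logarithmic and the others are linear from 0. Hsd3b5 and Cyp17a1 are the panels without overlap between groups, and Hsd17b6 overlaps only through E1 (575) and C1 (501).

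Hsd17b6 encodes an oxidative dehydrogenase of the retinol dehydrogenase type that acts on androgens and their reduced metabolites. It had 501, 739, 672 and 796 in controls 1 to 4 and 575, 329 and 227 in ethanol mice 1 to 3. Ethanol 1 lay inside the control range, and the other two ethanol livers lay below it. The means were 677 ± 128 (SD, n = 4) and 377 ± 179 (SD, n = 3), and the log2 fold change was -0.79 ± 0.22 (SE), with -0.54 without ethanol 3 and -1.09 without ethanol 1.

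Hsd17b2 oxidizes estradiol and testosterone to their less active ketone forms. Its intensity was 3712, 4024, 5116 and 5467 in controls 1 to 4 and 3801, 4874 and 5360 in ethanol mice 1 to 3. The groups covered the same range. The log2 fold change was 0.01 ± 0.15 (SE), with a 95% interval from -0.32 to 0.35.

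Hsd11b1 encodes the reductase that regenerates active glucocorticoid inside hepatocytes, with NADPH supplied by H6pd in the endoplasmic reticulum. It was read by 4 probes. The 3 bright ones had means of 23780 ± 3337, 17875 ± 1371 and 16434 ± 1692 in controls (SD, n = 4) and 22394 ± 1159, 16791 ± 1373 and 15541 ± 365 in ethanol livers (SD, n = 3). The groups overlapped at each of them. Their log2 fold changes were -0.12 ± 0.10, -0.15 ± 0.09 and -0.11 ± 0.09 (SE), and their 95% intervals ran from -0.35 at the lowest bound to 0.11 at the highest. The fourth probe, ILMN_3041149, was not above background on any array, with intensities from 6.07 to 24.8.

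Hsd3b2 and Hsd3b3 encode family members known in the mouse from kidney and liver, which turn the hydroxyl group of steroid precursors into a ketone. Of the 6 probes of Hsd3b2, 3 were above background on all arrays. ILMN_1233611 was above background only in control 2 (28.0) and ethanol 1 (25.8), and ILMN_1241116 and ILMN_1259238 were in no liver. The brightest, ILMN_2898958, had 1032, 1196, 942 and 936 in controls 1 to 4 and 811, 922 and 1145 in ethanol mice 1 to 3, so the groups overlapped. Its log2 fold change was -0.09 ± 0.12 (SE), with a 95% interval from -0.37 to 0.18. The other measured probes, ILMN_1214838 and ILMN_1234480, gave 0.07 ± 0.13 and -0.15 ± 0.16. These 3 probes did not follow each other closely between animals: the correlations of their deviations from the group means were 0.01, 0.26 and 0.61 over 7 livers, against 0.48 to 0.87 among the 3 bright probes of Hsd11b1. The only probe of Hsd3b3 was not above background in any liver, with intensities from -15.2 to 4.21, so no fold is given.

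**Figure D2:**
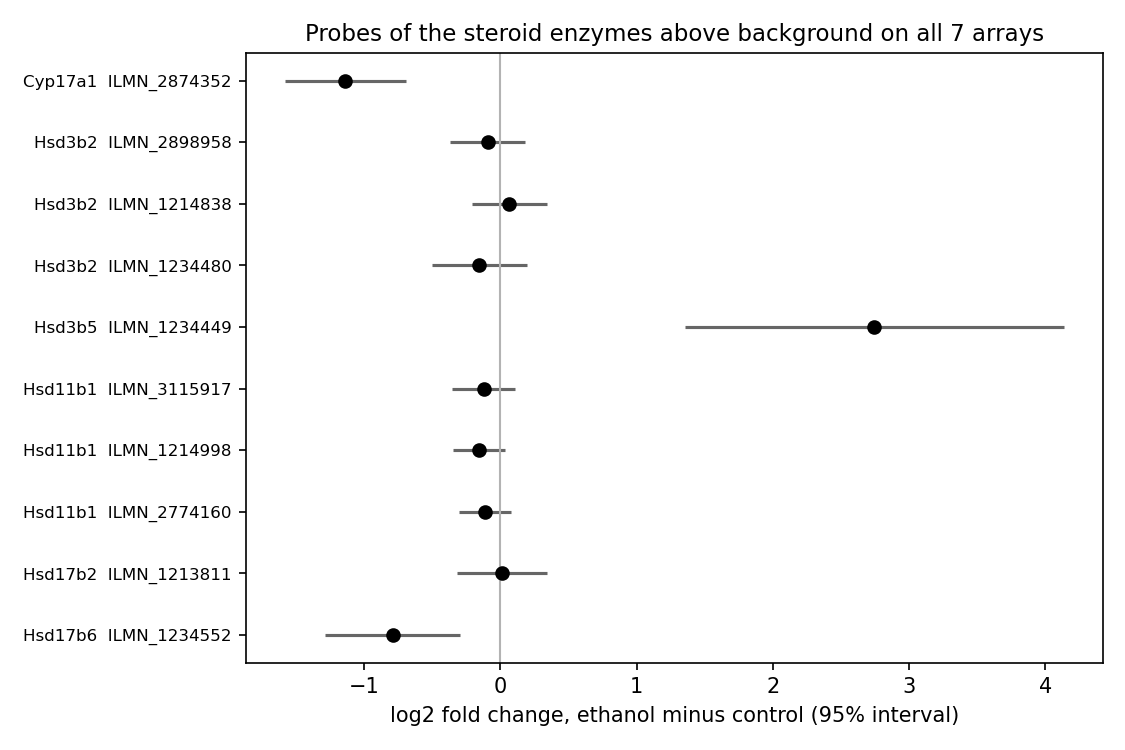
Log2 fold change (ethanol minus control, points) with 95% interval (lines) for the 10 probes above background on all 7 arrays. The intervals of Hsd3b5 (1.35 to 4.13), Cyp17a1 (-1.58 to -0.69) and Hsd17b6 (-1.28 to -0.29) lie away from 0, and those of the other 7 probes include it; the genes were chosen with these differences known, so the intervals describe and do not test.

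None of the 12 tested probes passed an adjusted p of 0.05 in limma, where 0.021% of all tested probes did (5 of 23829). At an unadjusted p under 0.05 there were 3 of 12, those of Hsd3b5, Cyp17a1 and Hsd17b6, beside 8.8% of all tested probes (4.12% higher in ethanol livers and 4.67% lower). Groups did not overlap at 1 probe higher in ethanol livers, beside 4.12% of all tested probes, and at 1 lower, beside 4.6% (8.71% in both directions). Because the genes were listed with this contrast in view, nothing is read from these counts. The number of calls over the whole array changed with the animals included. It was 27 once ethanol 1 was left out, 3 when ethanol 3 was, 2 when ethanol 2 was and 1 when control 2 was. It was 0 when any of the other control livers was left out. Smaller groups also lower the power of each run, and the cause of the changes was not tested.

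The spread between control animals does not use the contrast. The genes were still listed with the control values known, so their ranks are not independent of the choice. Among 7648 genes above background on every array, Hsd3b5 ranked 15 from the top by the SD of log2 intensity between the 4 controls (0.99), where the median gene had 0.13. Control 1 carried much of this spread, and without it the SD was 0.49 and the rank 70. Cyp17a1 ranked 670 (0.28), Hsd17b2 871 (0.26) and Hsd17b6 899 (0.25), so each varied more than most genes. Without control 1, Cyp17a1 fell to rank 4747 (0.09) and Hsd17b6 to 3456 (0.12), while Hsd17b2 stood at 665 (0.25). Hsd11b1 ranked 2587 (0.17) and Hsd3b2 3233 (0.15), close to the median gene.

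**Figure D3:**
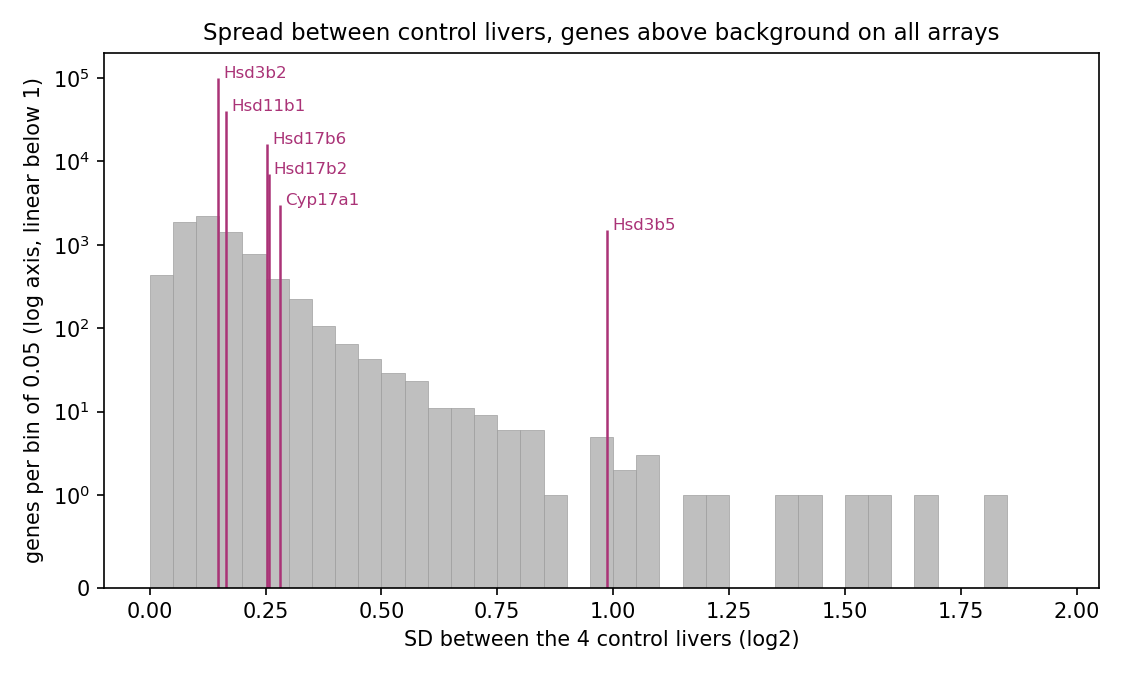
Number of genes (log axis, linear below 1) by SD of log2 intensity between the 4 control livers, in bins of 0.05, for 7648 genes above background on all arrays, with a line at each of 6 enzymes. Hsd3b5 at 0.99 stands in the far tail, and the other 5 lie between 0.15 and 0.28.

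Hsd3b5 and Cyp17a1 ran in exactly opposite order over the animals. Control 1 had the lowest Hsd3b5 and the highest Cyp17a1, ethanol 3 had the highest Hsd3b5 and the lowest Cyp17a1, and each step between them, inside the control group and inside the ethanol group, went the same way. The order between the groups is not independent of the choice of these genes, which were listed with their group differences known. Inside the controls, the step in Cyp17a1 from control 2 (10.26) to control 4 (10.23, both log2) was small. Once the mean of each group was taken away, Pearson's r of the log2 deviations was -0.96 over 7 livers, and Spearman's rho of the ranks within groups was -1. An exact two-sided permutation test of the livers within their groups (144 arrangements) gave p = 0.00694 for r, the smallest it can give, and p = 0.0139 for rho. Adjusted over the 15 pairs of enzymes compared, these were 0.104 and 0.208, which are the lowest values that a single pair could reach here, so this design could not have passed it. The test was added after the pattern had been seen. Without ethanol 1 and ethanol 3, the livers farthest out in Hsd3b5, r was -0.94, a value that rests mainly on the controls. Without control 1 and ethanol 3, the farthest out in Cyp17a1, it was -0.92. Among controls alone r was -0.98, and among ethanol livers alone -0.95. Of 12768 other genes, 12 had an r with Hsd3b5 at or below that of Cyp17a1.

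Hsd17b2, whose interval for the group difference included 0, moved with Hsd3b5 between animals, with r = 0.86 (exact permutation p = 0.0347, adjusted 0.260) and rho = 0.86, and with r = 0.78 without ethanol 1 and ethanol 3. With Cyp17a1 it had r = -0.77 (exact permutation p = 0.0625, adjusted 0.312). Hsd17b6 ran opposite ways in the groups in its relation to Hsd3b5, with r = 0.76 among controls alone and -0.99 among ethanol livers alone. Over all livers r was -0.43, and without ethanol 1 and ethanol 3 it was 0.74. Leaving out those livers keeps ethanol 2 as the only ethanol liver, so this value and the 0.78 above rest mainly on the controls. With 144 arrangements a lone pair among 15 cannot pass after adjustment, so the adjusted values decide nothing for any pair.

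**Figure D4:**
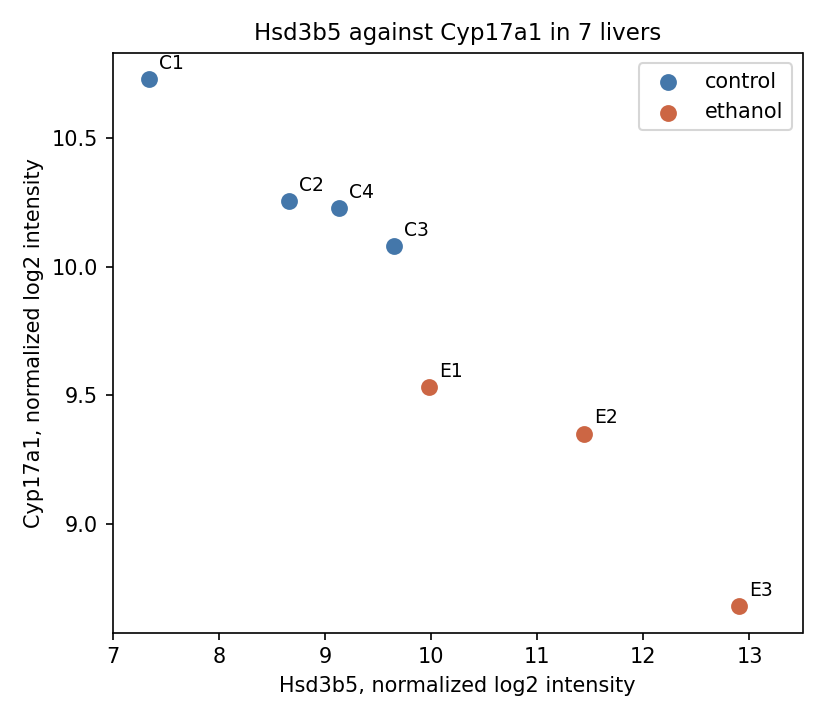
Normalized log2 intensity of Cyp17a1 against that of Hsd3b5 in each liver, with C1 to C4 for controls and E1 to E3 for ethanol mice. The 7 livers fall in one descending order from C1 (7.34 for Hsd3b5, 10.73 for Cyp17a1) to E3 (12.90 and 8.68), inside each group as well as between them. The order between groups is not independent of how the genes were chosen.

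The genes whose deviations within groups were most like those of an enzyme are given as a description over 7 livers, with group means removed, and many genes reach high values with so few animals. For Hsd3b5 they were Gna14, a G protein alpha subunit, Hacd1, a fatty acid elongation dehydratase, and Hmces, a protein that binds abasic sites in DNA, each with r = 0.99, and 36 of 12768 genes reached 0.95. Gna14 had an intensity of 69.6 ± 19.6 in controls (SD, n = 4) and 118 ± 42.4 in ethanol livers (SD, n = 3), a log2 fold change of 0.42 ± 0.16 (SE). The log2 fold changes of Hacd1 and Hmces were smaller, at 0.27 ± 0.12 and 0.02 ± 0.12 (SE). For Cyp17a1 they were Cstb, an inhibitor of cysteine proteases (0.99), and Trpc6 and Epgn (both 0.99), whose probes were above background on 4 and 0 arrays. For Hsd17b6 they were Adcy6, an adenylyl cyclase, Tmem185b and Crcp, at 0.99, 0.99 and 0.98. For Hsd11b1 the first was Mmp2, a matrix metalloproteinase (0.99), followed by Gpc6 and Prl8a9 (both 0.98). For Hsd3b2 they were Mucl2, Vps18 and Neurod2 (0.99, 0.99 and 0.98), and for Hsd17b2 Dusp26, Meikin and Snhg11 (1.00, 0.98 and 0.98). Of the genes named for Hsd11b1, Hsd3b2 and Hsd17b2, Mmp2 and Vps18 were above background on all arrays and the others on 5 or fewer.

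The Hsd3b genes lie near each other on mouse chromosome 3, in the order Hsd3b4, Hsd3b5, Hsd3b2, Hsd3b3, Hsd3b6 and Hsd3b1, with 4 other annotated genes between the first pair, 2 between Hsd3b5 and Hsd3b2 and 1 between the last pair. Hsd3b5 and Hsd3b2 are the members read above background on all arrays. Next to the values of Hsd3b5 and Hsd3b2 above, Hsd3b4 had 28.0 ± 8.29 in controls (SD, n = 4) and 35.4 ± 4.78 in ethanol livers (SD, n = 3), and the probes of Hsd3b1, Hsd3b3 and Hsd3b6 were not above background in any liver. The family members are similar in sequence, and whether a probe also binds the RNA of another member was not tested, because no probe sequences were used here. The promoters of Hsd3b5 and Hsd3b3 are shown because they were the pair with the longest alignment in the family: over 252 aligned columns they shared 191 bases (75.8%). Hsd3b5 and Hsd3b2 aligned over 81 columns (75.3%), and each other pair among these 6 genes over 33 columns or fewer. Each sequence covers 250 bases before to 50 after the annotated start, from RefSeq on GRCm38.p6, 5′ to 3′, with bases identical in the alignment in capitals. Hsd3b3 is at chr3:98763079-98763378 and Hsd3b5 at chr3:98645485-98645784, both on the minus strand.
Hsd3b3: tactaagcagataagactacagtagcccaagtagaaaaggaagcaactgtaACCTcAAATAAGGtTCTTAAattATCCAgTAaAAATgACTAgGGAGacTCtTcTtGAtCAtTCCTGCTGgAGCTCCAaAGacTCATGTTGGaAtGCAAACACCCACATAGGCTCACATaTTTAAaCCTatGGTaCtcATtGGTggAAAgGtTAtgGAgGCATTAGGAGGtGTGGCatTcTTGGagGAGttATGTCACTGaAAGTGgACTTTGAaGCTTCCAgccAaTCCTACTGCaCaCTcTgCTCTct
Hsd3b5: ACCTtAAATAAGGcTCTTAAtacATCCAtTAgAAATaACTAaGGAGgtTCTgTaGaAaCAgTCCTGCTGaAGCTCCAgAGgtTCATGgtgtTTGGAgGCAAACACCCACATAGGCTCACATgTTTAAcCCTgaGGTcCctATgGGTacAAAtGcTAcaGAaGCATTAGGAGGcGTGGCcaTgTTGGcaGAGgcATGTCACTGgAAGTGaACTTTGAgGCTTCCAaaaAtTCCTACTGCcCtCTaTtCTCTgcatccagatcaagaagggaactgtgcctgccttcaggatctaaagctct

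The table held 8 promoters for 6 of the 8 enzymes, with Cyp17a1 and Hsd17b2 not among them. The STAT5-type motif TTCNNNGAA, with N any base, and the nuclear receptor half-site AGGTCA were searched on both strands. Neither was found in these 8 promoters. Of 32851 promoters of the same length, 8.3% held the first and 16.3% the second. Both promoters of Hsd3b3 had nearly the same sequence, and those of Hsd17b6 overlapped, so the 8 are not separate sequences. With motifs this uncommon and so few sequences, nothing is read from finding none.

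Other genes of steroid biology, 96 in 7 lists chosen by role, showed no call. The lists were made with earlier results of these data known, so nothing is read from the counts that follow. Of the 96 genes 64 were tested, and 0 passed an adjusted p of 0.05 in limma, where 0.0313% of all tested genes did. At an unadjusted p under 0.05 there were 5 higher and 5 lower, beside 4.21% and 4.92% of all tested genes (9.13% together). Groups did not overlap for 3 higher and 4 lower, beside 4.17% and 4.8% (8.97% together). Log2 fold changes were above 0 for 28 and below 0 for 36 of the 64, with a median of -0.02, and over all 12769 tested genes the median was -0.0014.

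Genes that gland cells use to make steroids were at background. Of 9 with a probe, 8 were not above background on any array, among them Star, which carries cholesterol into mitochondria, and Cyp11a1, which cleaves its side chain. The exception was Hsd17b1, an estradiol-forming enzyme, with 26.3 ± 3.86 in controls (SD, n = 4) and 20.8 ± 14.7 in ethanol livers (SD, n = 3), above background on 4 arrays. Cyp11a1 had 13.9 ± 2.48 and 13.7 ± 4.31, and Cyp11b2, the aldosterone synthase, 12.2 ± 13.1 and 19.3 ± 4.31.

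Other dehydrogenases and reductases gave 6 values above 0 and 11 below 0 of 17 tested, with a median log2 fold change of -0.10. Akr1c18, which inactivates progesterone, had 1012, 1414, 1263 and 1557 in controls 1 to 4 and 320, 958 and 241 in ethanol mice 1 to 3. All ethanol livers lay below the controls, and ethanol 2 lay close to control 1. Its log2 fold change was -1.45 ± 0.32 (SE), with an adjusted p in limma of 0.316. Without ethanol 2 it was -1.95 with an adjusted p in limma of 0.00452, while its other settings gave no call. Hsd17b7, which also serves cholesterol synthesis, had -0.49 ± 0.17 at 1 probe and 0.16 at the other, and the carbonyl reductase Cbr1 -0.20 ± 0.08. Hsd3b7, the family member of bile acid synthesis, had 25194 ± 992 in controls (SD, n = 4) and 24856 ± 3346 in ethanol livers (SD, n = 3).

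Among redox partners, which pass electrons or cofactor to these enzymes, 4 of 6 values were above 0, with a median of 0.09. H6pd, the partner of Hsd11b1, had 0.20 ± 0.13, Cyb5r3, a cytochrome b5 reductase, 0.24 ± 0.10 with its other probes at 0.20 and 0.70, and Pgrmc1, a membrane heme protein, -0.20 ± 0.13 (log2 fold change with SE). None passed. H6pd was 0.11 without control 1, its low liver, and 0.06 without ethanol 3, and Pgrmc1 was -0.13 without ethanol 1.

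Steroid hydroxylases and conjugating enzymes had a median log2 fold change of 0.21 over 10 tested genes, 6 above 0 and 4 below. Cyp7b1, a hydroxylase of oxysterols and dehydroepiandrosterone, had 313, 404, 485 and 488 in controls 1 to 4 and 406, 999 and 2171 in ethanol mice 1 to 3, so ethanol 1 lay among the controls. Its log2 fold change was 1.10 ± 0.39 (SE, adjusted p in limma 0.482), with 0.53 without ethanol 3 and 1.67 without ethanol 1 (adjusted p in limma 0.0609). Cyp2d9, a male-biased testosterone hydroxylase, had 3805, 11996, 12317 and 13138 in controls and 14793, 21169 and 22867 in ethanol livers. Its groups did not overlap, control 1 stood low, and the log2 fold change was 1.02 ± 0.35 (SE, adjusted p in limma 0.480), or 0.61 without control 1. Ugt2b1, a glucuronosyltransferase, had 0.51 ± 0.22, and 0.29 without ethanol 3.

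Of the steroid receptors and carriers, 1 value of 6 was above 0 and the median was -0.16. Serpina6, the corticosteroid-binding globulin that the liver secretes, had 4050, 3552, 4618 and 5269 in controls 1 to 4 and 2722, 3340 and 2316 in ethanol mice 1 to 3. All ethanol values lay below the control values. Its log2 fold change was -0.65 ± 0.14 (SE), with an adjusted p in limma of 0.306. The 6 values include that of Nr3c1, the glucocorticoid receptor (-0.18), whose probe was above background on 1 array. The value above 0 is that of Esr2, an estrogen receptor (0.18), whose probe was above background on none.

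Glucocorticoid response genes went both ways, 7 above 0 and 5 below of 12, with a median of 0.05. Cdkn1a, a cell cycle inhibitor, had 0.80 ± 0.23, Sgk1, a kinase, -0.48 ± 0.28, and Mt1, a metallothionein, -0.94 ± 0.44 (log2 fold change with SE). Ethanol 1 was the highest of the 7 livers for 9 of the 12 genes, among them Fkbp5, a cochaperone of the receptor, with 446 against 147 to 215 in the others, and Lcn2, a secreted lipocalin, with 1964 against 272 to 554. The 9 include Tat and Zbtb16, whose probes were above background on 0 and 3 arrays. The share of all tested genes with ethanol 1 highest is not given here, so nothing particular to this list is read from the count. Leaving out 1 liver moved Sgk1 between -0.85 (without ethanol 1) and -0.17 (without ethanol 2), and Mt1 was -0.47 without ethanol 3. Without ethanol 1, Mt1 had -1.62 with an adjusted p in limma of 0.0470, and Mt2, another metallothionein named after its values were seen, had an adjusted p in limma of 0.00322. Mt2 read 124 to 169 in controls, 296 in ethanol 1, and 14.7 and 24.3 in ethanol 2 and 3, which were not above background, so no fold is given. With all 7 livers neither gene passed. Tsc22d3, a direct target of the glucocorticoid receptor, had 897, 1925, 2539 and 3217 in controls 1 to 4 and 5411, 1170 and 2874 in ethanol mice 1 to 3.

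Regulators of sex-biased liver genes had 3 values above 0 and 7 below of 10, with a median of -0.05. Socs2, which damps signalling by the growth hormone receptor, had 3488, 3696, 2283 and 2723 in controls 1 to 4 and 1107, 1418 and 696 in ethanol mice 1 to 3, with no overlap. Its log2 fold change was -1.48 ± 0.21 (SE, adjusted p in limma 0.0864). Tox and Foxa2, DNA-binding proteins, had -0.32 ± 0.16 and -0.21 ± 0.19. Leaving out 1 liver moved Tox between -0.53 (without ethanol 1) and -0.19 (without ethanol 2), and Foxa2 between -0.42 (without ethanol 3) and -0.10 (without control 4). The probe of Stat5b, the main transducer of growth hormone in liver, was not above background on any array.

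**Figure D5:**
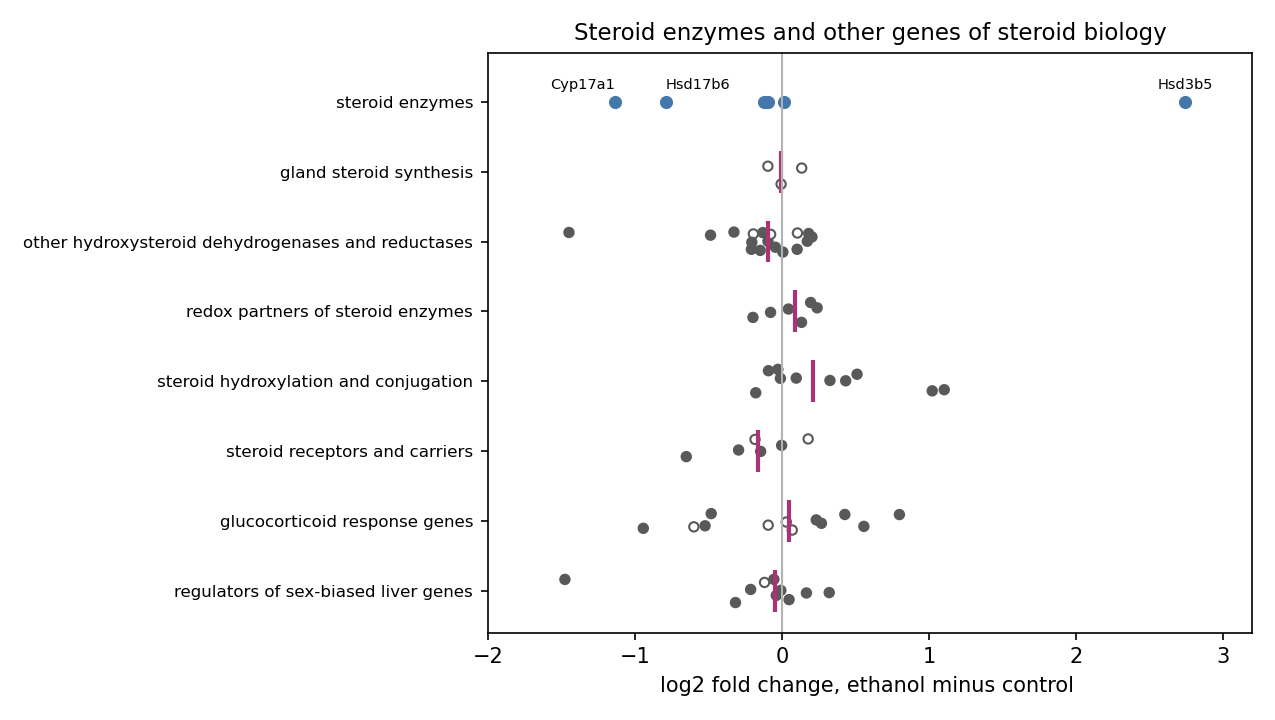
Log2 fold change (ethanol minus control) of the brightest tested probe of each gene, with the 6 enzymes in the top row and 7 lists of other steroid genes below. Filled grey points were above background on all arrays, open points were not, and the bars are list medians, which lie between -0.16 and 0.21.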

How the data were processed

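Liver RNA from 4 control and 3 ethanol mice was hybridised to Illumina mouse arrays, 1 per sample. The values used are the authors' deposited intensities for 45281 probes, made with GenomeStudio per the submitters' processing notes; its version, background and normalization settings are not given in the sources used here. Values below 0 show that a background had been subtracted. A second table, whose 14 columns match no sample label, was not used. The intensities were corrected with normexp (offset 50), put on the log2 scale and quantile-normalized in limma 3.58.1 (R 4.3.3). A probe was tested where it exceeded the array median on at least 3 arrays. The group contrast was fitted with lmFit and eBayes and its two-sided p-values were adjusted by Benjamini-Hochberg across the 23829 probes. The fit was tested on simulated data. The number of arrays limits the precision. Noise was the root mean square of an array's negative values.

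Names came from the platform annotation, updated by Entrez ID through RefSeq (GRCm38.p6): 34885 probes had 1 symbol, 18 several and 10378 none, and those with several were not named. A gene in a list was read at its brightest tested probe. The enzymes and lists were chosen with earlier results of these data known. Every probe of the enzymes is reported, and of each list the 3 genes with the largest moderated statistic, any gene past the threshold and a few named for their role after their values were seen. For likeness, the 3 genes with the highest within-group correlation are named. The permutation tests of enzyme pairs were added after seeing the data. Promoters were aligned locally with Biopython 1.88. Alternatives were other background corrections, normalizations, filters and variance models, a replicate block, and runs without 1 animal.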

Additional observations from a re-analysis of the deposited data

Results flagged for a closer look

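Among 36 probes of the enzymes and of the named list genes, 3 had a control liver far from the other 3, where the gap to its neighbour, as a share of the group's range, exceeded Dixon's 95% critical value for 4 samples. Chance flags about 1 in 20 groups. Control 1 stood low for H6pd, the cofactor partner of Hsd11b1, with an intensity of 2466 against 3257 to 3352 in the other controls. Control 1 also stood low for Cyp2d9, the male-biased testosterone hydroxylase, with 3805 against 11996 to 13138. Control 4 stood low for Esr2 with -7.59 against 1.46 to 3.28, at a probe that was not above background on any array. None of the 15 probes of the steroid enzymes themselves had such a control.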

How the results depend on the processing

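The number of probes called over the whole array was 5, and 11 without normexp, 3 with an offset of 16, 8 without a filter on dim probes, 0 where a probe had to be above background on 3 or more arrays, 1 with trended robust variances, 24 with the replicate block and 0 to 27 in runs without 1 animal. Deviations of same-numbered livers correlated at -0.19, 0.09 and 0.20, and those of control and ethanol livers with unlike numbers at -0.16 to 0.30. Whether replicate numbers mark a shared batch or litter cannot be told from these values. With that replicate block, 2 enzyme probes passed, Hsd3b5 (log2 fold change 2.89, adjusted p in limma 0.00125) and Cyp17a1 (-1.17, adjusted p in limma 0.0330). None passed in the other settings. Control 4 has no ethanol liver of its number, and without control 4 and without the block the adjusted p in limma was 0.504 and 0.358. Deviations of Hsd3b5 rose with the number, from -1.35 to 0.95 over controls 1 to 3 and from -1.46 to 1.46 over ethanol 1 to 3. What the numbers mark is unknown, so nothing is read from passes with the block. Of the other steroid genes, 1 passed with dim probes kept and 1 with the replicate block, both times Socs2 (adjusted p in limma 0.0433 and 0.00501), and 0 to 2 in runs without 1 animal. The log2 fold changes of Hsd3b5, Cyp17a1 and Hsd17b6 kept their sign in all 15 alternatives, from 2.01 to 3.47, from -1.31 to -0.88 and from -1.09 to -0.54. The within-group r of Hsd3b5 and Cyp17a1 was -0.94 without normexp and without normalization between arrays. The rank of Hsd3b5 by control spread without control 1, an alternative chosen after seeing the data, was 70. The cause of these shifts was not tested.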
